A study of Mus musculus with 24 samples.

Results

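The comparison asked how the effect of a hindpaw incision on spinal astrocyte nuclear RNA 1 day later, at postnatal day 4 (P4), differed from the effect 21 days later, at P24. It used 16 of the 24 libraries of the study, 8 at each age, and the 13981 genes present in both deposited tables. An effect is the mean log2(value + 1) of incised minus naive libraries within the table of that age, where the value is the deposited normalized count, and the difference is the P4 effect minus the P24 effect. The 4 groups of 4 libraries were incised P4, naive P4, incised P24 and naive P24. Every pup, naive pups included, carried Aldh1l1-creERT2(+/-) and R26-LSL-Sun1.GFP(+/-), so that a Cre recombinase under the astrocyte gene Aldh1l1 switches on a GFP-tagged nuclear envelope protein. The labels do not state when the inducible Cre was activated. Incised pups had an incision of 1 hindpaw on P3, and naive pups had isoflurane without incision on that day. GFP-positive nuclei were sorted from the dorsal horn of spinal segments L3 to L5 on the injured side, and the labels describe 1 library per mouse. Libraries are named by the sex and number in their titles, such as F1 or M2.

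Astrocytes take up transmitters and ions, supply neurons with lipids and metabolites, and secrete matrix proteins that act on synapses. In the dorsal horn they lie among the terminals of sensory fibres from the paw. After injury to nervous tissue they can change their cytoskeleton, adhesion genes and secreted proteins, while in the first postnatal weeks they also mature and grow.

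The sum of normalized counts was 3880251 to 4380629 per library at P4 and 5611321 to 6512585 at P24, with no record of read depth. Pairs of libraries had Spearman correlations of 0.824 to 0.874 within incised P4 and 0.924 to 0.960 within naive P4, against 0.957 to 0.971 within incised P24 and 0.963 to 0.977 within naive P24. Genes listed at 0 numbered 6 to 44 per incised P4 library and 4 to 9 per naive P4 library, against 3 to 11 per incised P24 and 2 to 15 per naive P24 library. The incised P4 libraries thus agreed less with each other than those of the other groups, and the part of this in the P4 effects was not tested. The median standard error of an effect was 0.35 on the log2 scale at P4 and 0.19 at P24, so smaller effects could be seen at P24. All 20 astrocyte identity genes were in both tables. Gfap, the astrocyte filament gene, had 8891 ± 999.9 normalized counts in incised P4 libraries, 12101 ± 2871 in naive P4, 21018 ± 2511 in incised P24 and 20288 ± 2511 in naive P24 (SD, n = 4 each). Markers of other cells were also present, and those that moved are given beside the results. In nuclei sorted in bulk, fewer nuclei of a type and less RNA per nucleus cannot be told apart.

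The effect of incision differed between the ages for 6 of 13981 genes, or 0.0429%, at a Benjamini-Hochberg adjusted p under 0.05 in limma. In 5 of them (Fth1, Slc6a11, Evi2a, Tpm2 and Thbs1) the P4 effect lay above the P24 effect, and in Fgf14 it lay below. All 6 had incised and naive libraries that did not overlap at P4, as did 5.76% of all genes, and groups that overlapped at P24. The same libraries chose these genes, so this describes them and is no separate evidence. Before adjustment, 1327 genes (9.49%) had a p under 0.05, of which 674 (4.82%) lay higher at P4 and 653 (4.67%) lower. The count of 6 fell to 0 without naive P24 F2, naive P24 F3 or incised P24 F2. It was 2 without incised P24 M1 and 3 without naive P4 F2 or incised P24 M2. It was 12 without incised P4 F1, 13 without naive P4 F1, 18 without incised P4 M3 and 36 without incised P4 M2. Without limma's trend and robust settings Fgf14 was the 1 gene called, while array weights gave 20, a pseudocount of 10 gave 10 and the authors' deposited fold changes gave 47, in each case with the 6 among them. By the titles incised P4 held 1 female and 3 males, and the other groups 2 of each. With sex in the model 6 genes were called from the titles and 7 from the deposited sheet, of which 4 and 5 were among the 6. Tpm2 was then not called (adjusted p = 0.0517 and 0.0637), nor was Thbs1 with sex from the titles (0.0517), with log2 differences of 2.72 and 2.64 for Tpm2 and 2.68 for Thbs1.

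**Figure D1:**
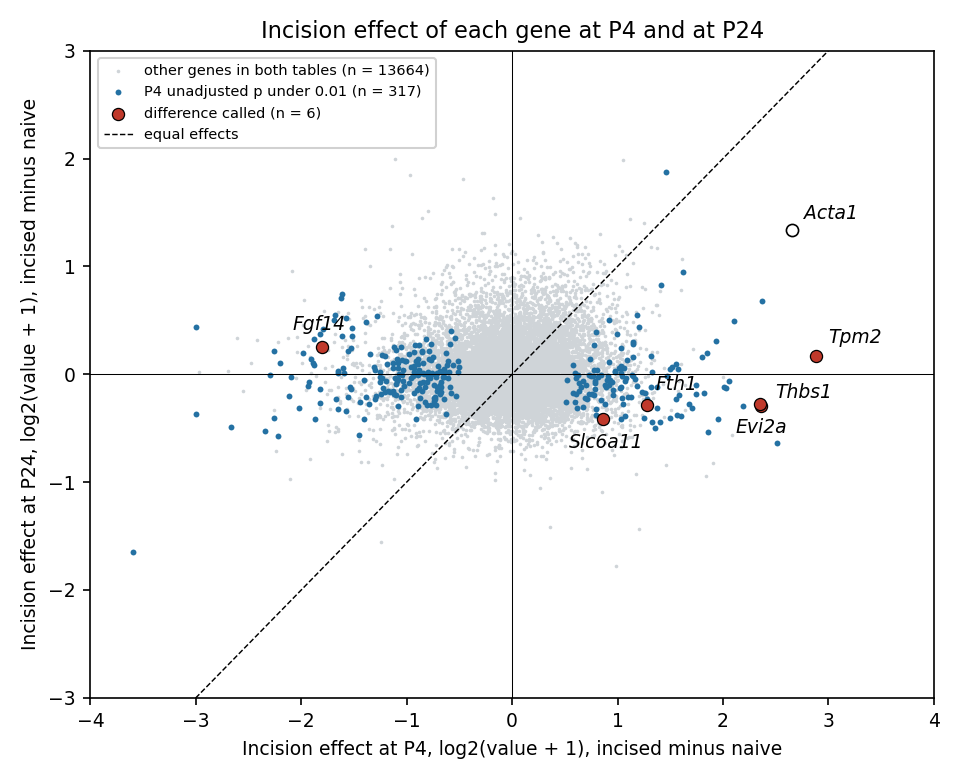
Incision effect of each gene at P4 (x axis) and at P24 (y axis), both as incised minus naive mean log2(value + 1), with 1 gene outside the axes. Blue points are the 317 genes with a P4 p under 0.01, which spread widely along x and lie near 0 along y, red points are the 6 genes whose effects differed, and the open circle is Acta1, with 2.65 at P4 and 1.34 at P24.

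Fth1 encodes the heavy subunit of ferritin, which stores iron (chromosome 19, 9980598-9985098, plus strand, mm10). It was higher in incised P4 pups and slightly lower in incised P24 pups. Incised P4 libraries had 2862, 2599.6, 2457 and 1578 normalized counts, against 1232, 952, 846 and 829 in naive P4 libraries. It had 3861, 3333, 3624 and 3455 in incised P24 libraries, against 4406, 4949, 3468 and 4637 in naive P24 libraries. The groups were apart at P4, while at P24 only naive M1 lay within the range of the incised libraries. The P4 effect was 1.28 (95% interval 0.83 to 1.73, adjusted p = 0.0296) and the P24 effect -0.28 (-0.53 to -0.03, unadjusted p = 0.0265). The difference was 1.56 with an SE of 0.25 (adjusted p = 0.0148). The genome holds processed copies of Fth1, and how the counting treated reads shared with them was not given in the sources used here. Ftl1, the light chain, had effects of 0.52 at P4 and -0.06 at P24, and its difference was not called (unadjusted p = 0.0103, adjusted p = 0.349).

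Slc6a11, the astrocyte GABA transporter GAT-3 (chromosome 6, 114131241-114249952, plus strand), was also higher after incision at P4 and lower at P24. It had 2562, 2836, 2856 and 3369.7 normalized counts in incised P4 libraries, against 1551, 1629, 1853 and 1381 in naive P4 libraries. It had 1319.9, 1028, 1024 and 1132 in incised P24 libraries, against 1829, 1606, 1405 and 1193 in naive P24 libraries. Every incised P4 library was above every naive one, and at P24 only naive M2 fell among the incised libraries. The P4 effect was 0.86 (0.50 to 1.22), the P24 effect -0.41 (-0.68 to -0.14, unadjusted p = 0.00359), and their difference 1.27 (0.83 to 1.71, adjusted p = 0.0225). Neither effect alone was called, with adjusted p = 0.116 at P4 and 0.384 at P24 in limma, while the authors' deposited table calls it at P4 (adjusted p = 0.00895).

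Thbs1 encodes the secreted matrix protein thrombospondin 1, which promotes synapse formation (chromosome 2, 118111876-118127133, plus strand). It had 502, 611, 408 and 306 normalized counts in incised P4 libraries, against 121, 69.4, 83.9 and 76.9 in naive P4 libraries. Incised P24 libraries had 61.3, 48.0, 33.5 and 77.9, against 49.0, 81.3, 40.7 and 104 in naive libraries. All incised P4 libraries stood above the other 12 libraries, although the 2 tables were normalized apart, and the P24 groups were interleaved. The P4 effect was 2.35 (1.75 to 2.96, adjusted p = 0.00791) and the P24 effect -0.28 (-0.91 to 0.36). The difference was 2.63 (1.67 to 3.59, adjusted p = 0.0225).

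Tpm2 encodes beta-tropomyosin, which lies along actin filaments of muscle and other contractile cells (chromosome 4, 43514711-43523765, minus strand). It had 460.4, 565, 238 and 261 normalized counts in incised P4 libraries, against 63.7, 28.5, 43.3 and 64.3 in naive P4 libraries. At P24 it had 60.3, 47.0, 55.5 and 50.8 in incised libraries, against 45.9, 67.9, 50.2 and 31.2 in naive libraries. The incised P4 libraries were high and spread over a wide range, and the P24 libraries of both groups were alike in range. The P4 effect was 2.88 (2.10 to 3.66, adjusted p = 0.00791), the P24 effect 0.17 (-0.42 to 0.77), and the difference 2.71 (1.73 to 3.69, adjusted p = 0.0225).

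Evi2a, a small membrane protein gene, lies within the span of Nf1 on the other strand (chromosome 11, 79526560-79530609, minus strand, with Nf1 from 79339693 to 79581612 on the plus strand). It was low in all P4 libraries, with 74.5, 35.0, 86.3 and 77.9 normalized counts in incised P4 libraries, against 9.81, 22.4, 5.79 and 14.7 in naive P4 libraries. Incised P24 libraries had 466, 669, 538 and 616, against 645, 689, 755 and 701 in naive libraries. The groups were apart at P4, and at P24 only the range from 645 to 669 was shared. Its effects were 2.36 (1.32 to 3.40, adjusted p = 0.139) at P4 and -0.30 (-0.57 to -0.03, unadjusted p = 0.0323) at P24, and the difference was 2.66 (1.71 to 3.60, adjusted p = 0.0225). The fit of the difference averages the spread at both ages, so this interval is narrower than that of the P4 effect alone. The authors' deposited table calls Evi2a at P4 (adjusted p = 0.00212). The sources used here do not state whether the counting used strand, and without it reads of Evi2a and Nf1 cannot be told apart. Nf1, named after its values were seen, had effects of -0.67 at P4 and -0.11 at P24, with a difference of -0.56 that was not called (unadjusted p = 0.130, adjusted p = 0.663). The oligodendrocyte markers described below also had a negative P24 median (-0.38), and among incised P4 libraries a lowest summed level in M1 (1392). Their P4 groups overlapped, and whether Evi2a reads came from such nuclei was not tested.

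Fgf14 belongs to the intracellular FGFs, which bind voltage-gated sodium channels and are not secreted (chromosome 14, 123977907-124677127, minus strand). It was lower in incised P4 pups, with 87.6, 81.1, 47.9 and 77.3 normalized counts, against 287, 225, 289.9 and 220.0 in naive P4 libraries. At P24 it had 169, 145, 168 and 191 in incised libraries, against 159, 127, 133 and 142 in naive libraries. The P4 groups lay far apart, and at P24 the incised libraries were mostly above the naive ones with an overlap. The P4 effect was -1.81 (-2.43 to -1.19, adjusted p = 0.0296), the P24 effect 0.25 (-0.12 to 0.63, unadjusted p = 0.179), and the difference -2.06 with an SE of 0.32 (adjusted p = 0.0148). Its family member Fgf12 had effects of -0.86 and 0.14, without a call (adjusted p of the difference 0.406).

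**Figure D2:**
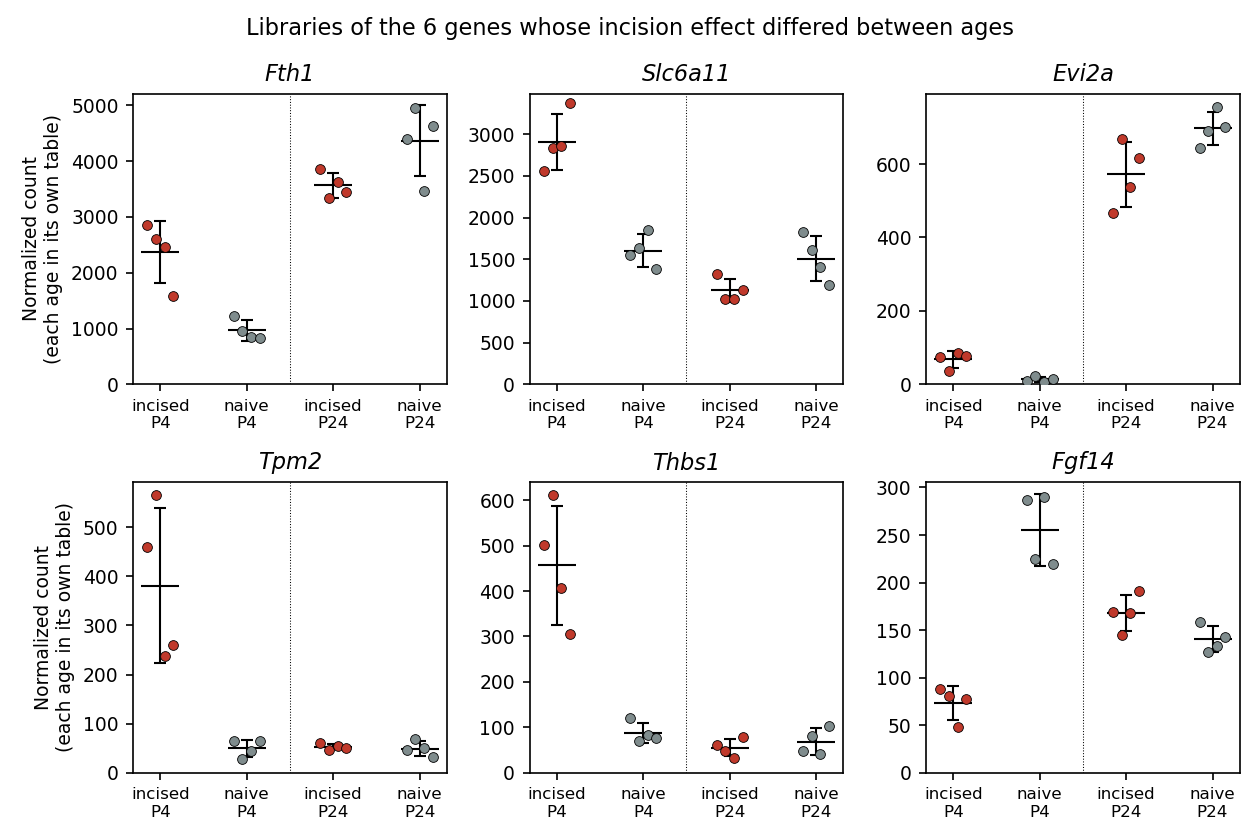
Normalized counts (y axis, from 0) of the 6 genes in each library, in the order incised P4, naive P4, incised P24 and naive P24, with bars at the mean ± SD of 4 libraries. In each panel the P4 groups are apart and the P24 groups overlap, and levels across the dotted line come from tables that were normalized separately.

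Levels on 1 scale were available for naive pups in the authors' table of ages. There Fth1 averaged 3754 ± 572 normalized counts in naive P24 and 1145 ± 218 in naive P4 libraries, and Evi2a 705 ± 42.1 in naive P24 and 14.98 ± 8.14 in naive P4 (SD, n = 4 each). Fgf14 averaged 124 ± 12.6 in naive P24 and 299 ± 44.7 in naive P4, and Thbs1 59.8 ± 25.8 in naive P24 and 104 ± 26.7 in naive P4. Slc6a11 averaged 1292 ± 234 in naive P24 and 1918 ± 239 in naive P4, and Tpm2 34.9 ± 10.8 in naive P24 and 63.9 ± 22.03 in naive P4. In Fth1, Evi2a and Fgf14 the naive P24 mean lay on the same side of the naive P4 mean as the incised P4 mean did in its own table, and in Thbs1, Slc6a11 and Tpm2 on the other side. At P10, with 3 incised and 3 naive libraries and no test, the log2 difference of incised minus naive was 0.05 for Fth1, -0.12 for Slc6a11, 1.24 for Evi2a, 0.09 for Tpm2, -0.18 for Thbs1 and 0.79 for Fgf14. For Fgf14 that value has the sign of the P24 effect, and for Evi2a the sign of the P4 effect.

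At P4 alone 12 of 14243 genes (0.0843%) were called, 10 higher and 2 lower after incision, and at P24 alone 0 of 15246. An unadjusted p under 0.05 was reached by 1338 genes (9.39%) at P4 and by 1491 (9.78%) at P24. Limma with array weights called 3 at P24, and the authors' deposited table calls 76 at P4 and 8 at P24. Of the 12 genes, 10 were also in the P24 table. There 3 had an effect of the same sign at an unadjusted p under 0.05, called kept here, 1 had the opposite sign, called reversed, and 6 had a p above that limit, called not detected. Over all genes in both tables, 5% had a P24 p under 0.05 with the sign of their P4 effect and 4.52% with the opposite sign. The count of 12 was 0 without the trend and robust settings, 4 with sex in the model from either source, 0 without incised P4 F1, 2 without naive P4 M1 or naive P4 M2, and 3 without naive P4 F2 or incised P4 M1.

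The kept genes were Acta1, Efemp1 and Dync2h1, where kept refers to the sign and not to the size. Acta1, the skeletal muscle alpha-actin gene, had 310.4, 386, 259 and 169 normalized counts in incised P4 libraries, against 81.0, 24.9, 28.8 and 52.9 in naive P4 libraries. At P24 it had 72.1, 39.6, 49.3 and 59.1 in incised libraries, against 14, 12.5, 36.7 and 27.6 in naive libraries. Incised libraries were above naive ones at both ages without overlap, as were 4.78% of all genes in either direction at P24. Its effects were 2.65 (1.80 to 3.51, adjusted p = 0.0296) at P4 and 1.34 (0.60 to 2.08, unadjusted p = 0.000818) at P24, and the difference of 1.31 was not called (adjusted p = 0.459). Dync2h1, the motor of return transport in cilia, was lower at both ages, with 186, 190.1, 143 and 196 in incised P4 libraries, against 629.8, 547, 405 and 406 in naive P4 libraries. It had 249, 363, 388 and 304 in incised P24 libraries, against 483, 607, 409 and 424 in naive P24 libraries, again without overlap. Its effects were -1.45 (adjusted p = 0.0296) and -0.56 (-0.88 to -0.24, unadjusted p = 0.00113), and the difference of -0.89 was not called (adjusted p = 0.285). Efemp1, the matrix protein fibulin 3, had effects of 2.37 (adjusted p = 0.0172) at P4 and 0.68 (0.03 to 1.34, unadjusted p = 0.0422) at P24, where naive M2 at 51.0 normalized counts lay among the incised libraries at 40.5 to 62.8. The difference of 1.69 was not called (adjusted p = 0.195).

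Fth1 was the reversed gene. Not detected at P24 were Thbs1, Tpm2, Fgf14, Anxa2, Lgals1 and BC005537, a gene without a known role. Anxa2, a calcium-dependent membrane-binding protein, had effects of 1.33 at P4 and -0.44 (-0.89 to 0.00) at P24, and the difference of 1.78 stood at adjusted p = 0.0535. Lgals1, the sugar-binding galectin 1, had effects of 2.06 and -0.06 (-0.55 to 0.43), with adjusted p = 0.0780 for the difference. For all 6 the P24 interval left out 50% of the P4 effect, so an effect that large at P24 lay outside the 95% interval. The P4 effect was taken here without its own error, and its size had helped to choose these genes. Acta2, the smooth muscle alpha-actin gene, was not in the P24 table. Its P4 effect was 2.64 (adjusted p = 0.0296), and its P24 effect was not analysed here.

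**Figure D3:**
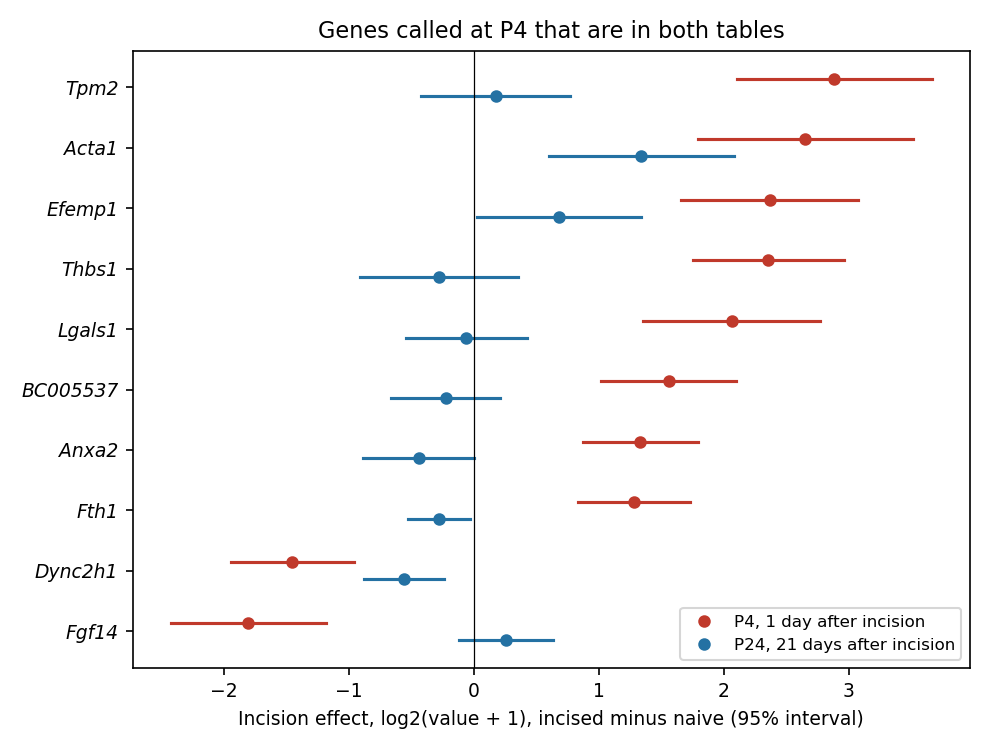
Incision effect on log2(value + 1) with its 95% interval for the 10 genes called at P4 that are in both tables, in red at P4 and below it in blue at P24. The blue intervals of Acta1 (0.60 to 2.08), Efemp1 (0.03 to 1.34) and Dync2h1 (-0.88 to -0.24) lie on the side of the P4 effect, that of Fth1 (-0.53 to -0.03) lies on the other side, and the other 6 include 0.

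Acta1 and Tpm2 both belong to the muscle-type actin and tropomyosin genes, both were higher at P4, and only Acta1 had a detected P24 effect. The sequences before their RefSeq starts are shown side by side, and a link between sequence and effect was not tested. The sequences are the 250 bases before the gene start in RefSeq's table (GRCm38.p6), at chr8:123894776-123895025 for Acta1 and chr4:43523555-43523804 for Tpm2, both on the minus strand and written 5' to 3'. Capitals mark a CArG box, the binding motif of serum response factor, searched on both strands as CC, 6 letters A or T, and GG.
Acta1: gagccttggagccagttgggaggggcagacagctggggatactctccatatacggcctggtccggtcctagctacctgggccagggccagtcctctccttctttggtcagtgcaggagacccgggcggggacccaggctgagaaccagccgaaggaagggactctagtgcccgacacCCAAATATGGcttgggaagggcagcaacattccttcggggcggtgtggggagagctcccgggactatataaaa
Tpm2: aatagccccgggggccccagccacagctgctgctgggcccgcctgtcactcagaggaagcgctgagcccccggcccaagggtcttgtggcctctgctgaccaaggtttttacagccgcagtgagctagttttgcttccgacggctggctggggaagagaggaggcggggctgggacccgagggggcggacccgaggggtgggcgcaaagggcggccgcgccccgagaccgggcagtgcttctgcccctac
The box in Acta1 starts 73 bases before the gene start. RefSeq and GENCODE start some genes at different places, and 211 of the 250 bases shown for Tpm2 lie within the GENCODE span given above, against 0 for Acta1. Of the 14 genes called in either comparison 9 had an entry, and 1, Acta1, held a box of this exact form. Of all 32851 entries 482 (1.47%) did, counted by entry and not by gene. Forms of the box with a changed letter were not searched, so other called genes may hold such forms. A match is a description of the letters and not a measured binding site, and no match in Tpm2 refers to this window only.

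Beyond the called genes, 344 of 14243 genes (2.42%) had a P4 p under 0.01, 152 higher and 192 lower in incised pups, and 317 of them were in the P24 table. At P24, 13 of the 317 were kept (4.10%, against 5% of all genes) and 17 reversed (5.36%, against 4.52%). Together this was 9.46%, against 9.52% of all genes with a P24 p under 0.05, so that the share detected at P24 was near the background at this limit. It was 15.4% (8 of 52) for the genes with a P4 p under 0.001 and 12.3% (8 of 65) for those that the authors' deposited table calls at P4, and genes of 1 table share their libraries and are not replicates. With 1 library left out, the share of the 317 was 13.2% without incised P24 F1, 5.99% without naive P24 F3 and 5.68% without incised P24 M2. The other 287 were not detected, and for 225 of these (78.4%) the P24 interval left out 50% of the P4 effect. That P4 effect was taken without its error, and the same share over all genes was not counted. The median size of the effect in the 317 genes was 1.04 at P4, where it chose them, and 0.15 at P24.

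The genes higher and lower at P4 differed in their P24 signs. Of 128 higher genes, 5 were kept (3.91%) and 13 reversed (10.2%), where 4.43% of all genes in both tables were higher and 5.09% lower at P24 by the same limit. A P24 effect above 0 was found in 31.25% of them, against 45.1% of all genes. Of 189 lower genes, 8 were kept (4.23%) and 4 reversed (2.12%), and 50.8% had a P24 effect below 0, against 54.9% of all genes. These are counts over genes that share libraries, and the contrast between higher and lower genes was not tested. Of the 65 genes in both tables that the authors' deposited table calls at P4, 3 were kept and 5 reversed by the same limits.

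Among the kept genes, Sarm1, an enzyme that drives axon degeneration in neurons, had 248, 186, 259.8 and 246 normalized counts in incised P4 libraries, against 113, 116, 145 and 192 in naive P4 libraries. In P24 pups it had 196, 191, 261 and 242 in incised libraries, against 124, 184, 147 and 171 in naive libraries. The P4 groups overlapped through naive M2, and the P24 groups did not overlap, as in 4.78% of all genes. Its effects of 0.75 and 0.51 differed by 0.24 (adjusted p = 0.858). Mboat7, an enzyme that adds arachidonate to phosphatidylinositol, had effects of 0.79 and 0.39, and Zfr2, a zinc finger gene, of 1.41 and 0.83. Malrd1 had effects of 1.26 and 1.40. On the lower side, Eml1, a microtubule-associated protein, had effects of -0.90 and -0.67 (P24 adjusted p = 0.0936), and Ucp3, a mitochondrial uncoupling protein, of -2.26 and -0.40. Ccdc141 had effects of -0.62 and -0.37, and Uhmk1, a kinase, of -1.32 and -0.60. None of these 8 was called at either age in limma, nor was any of their differences (adjusted p from 0.136 to 0.974). The authors' deposited table calls Eml1 at P24 (adjusted p = 0.0237) and none of the other 7 at either age.

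Among the genes with opposite signs, Gpr37l1, an astrocyte receptor, had 2298, 2647, 1659 and 2387 normalized counts in incised P4 libraries, against 1044, 1642, 1825 and 1431 in naive P4 libraries. At P24 it had 8026, 8250.3, 7754 and 6855 in incised libraries, against 12453, 9221, 10512 and 8547 in naive libraries. The P4 groups overlapped through incised M2 and naive M1, and the P24 groups did not overlap, as in 4.78% of all genes. Its effects were 0.61 and -0.39, with a difference of 0.99 (adjusted p = 0.155). Scd2, a fatty acid desaturase, had effects of 0.62 and -0.32, Yipf3, a Golgi membrane protein, of 0.80 and -0.38, and Rpl30, a ribosomal protein, of 1.2 and -1.43. The differences of these 3 had adjusted p = 0.129, 0.0780 and 0.117 in limma.

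In the other order, lower at P4 and higher at P24, stood Abcc5, an export pump, with 875, 1181, 1182 and 1022 normalized counts in incised P4 libraries, against 1673, 1499.5, 1624 and 1566 in naive P4 libraries. It had 2745, 3266, 2523 and 2774 in incised P24 libraries, against 2492, 2404, 1998 and 2403 in naive P24 libraries. The groups did not overlap at either age, in opposite directions. Of all genes 5.76% were apart at P4 and 4.78% at P24, and Abcc5 was chosen by its p at both ages. Its effects were -0.59 and 0.28, with a difference of -0.87 (adjusted p = 0.112). Zscan26, a zinc finger gene, had effects of -0.54 and 0.33, Ccm2, a scaffold of vascular junction signalling, of -0.97 and 0.54, Arglu1, a splicing regulator, of -0.44 and 0.30, and Cdc7, a kinase of DNA replication start, of -0.95 and 0.46. The differences of these 4 had adjusted p-values from 0.118 to 0.314. Next to the called genes on this side stood Tspyl2, with effects of -0.86 and 0.22 (adjusted p of the difference 0.101), the mitochondrial fission gene Mtfr1l, with -1.08 and 0.10 (0.102), the kinase gene Plk2, with -0.77 and 0.28, and Vhl, which marks hypoxia-inducible factors for breakdown, with -0.90 and 0.09 (0.117 for both).

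Taken from the other end, 355 of 15246 genes (2.33%) had a P24 p under 0.01, and 321 of them were in the P4 table. At P4, 14 had the same sign and 17 the opposite sign at a p under 0.05, which is 9.66%, against 9.07% of all genes, with 4.28% in the same and 4.79% in the opposite direction. This share was 5.92% without naive P4 F2, 6.23% without naive P4 M1 and 6.54% without naive P4 F1. For 37 of the other 290 the P4 interval left out 50% of the P24 effect. Standard errors were larger at P4 (median 0.35, against 0.19 at P24), so this count cannot be set against that in the other order. The median size of the P24 effect in the 321 genes was 0.56. Klhdc7b, a kelch-domain gene, had 132, 151, 131 and 146 normalized counts in incised P24 libraries, against 69.8, 39.4, 73.1 and 73.7 in naive P24 libraries. The P24 groups did not overlap, as in 4.78% of all genes, and the gene was chosen by its P24 p. Its effects were 0.47 at P4 and 1.16 at P24 (adjusted p = 0.0936), and the difference of -0.69 was not called (adjusted p = 0.601). The authors' deposited table calls Klhdc7b and Lpo at P24 (adjusted p = 0.0237 for both). Mme, the peptidase neprilysin, had effects of -0.18 and 1.64, with 34.6, 56.4, 84.5 and 68.7 in incised P24 libraries, against 18.7, 21.6, 9.26 and 27.4 in naive P24 libraries. Rab43, a small GTPase, had effects of -0.65 and 0.97 and the neuropeptide gene Nts of -0.40 and 0.74. On the lower side at P24, the peroxidase gene Lpo had effects of 0.56 and -0.87 and the matrix gene Matn4 of 0.33 and -0.79, both with adjusted p = 0.0936 at P24.

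The pathway and cell type lists were described by counts and medians. The median over all genes was -0.03 for the P4 effect, -0.03 for the P24 effect and -0.03 for the difference. Of 28 lists, 15 had a positive P4 median with a negative P24 median, and 18 had a positive median difference. The lists held 5 of the 6 called genes, Evi2a being outside them. They were chosen with earlier results of these data known, so this count and those below describe the members and are no separate evidence. Counts of members below are at an unadjusted p under 0.05 of the difference, which 4.82% of all genes reached on the higher side and 4.67% on the lower side. A pair of values after a gene gives its P4 effect and its P24 effect.

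**Figure D4:**
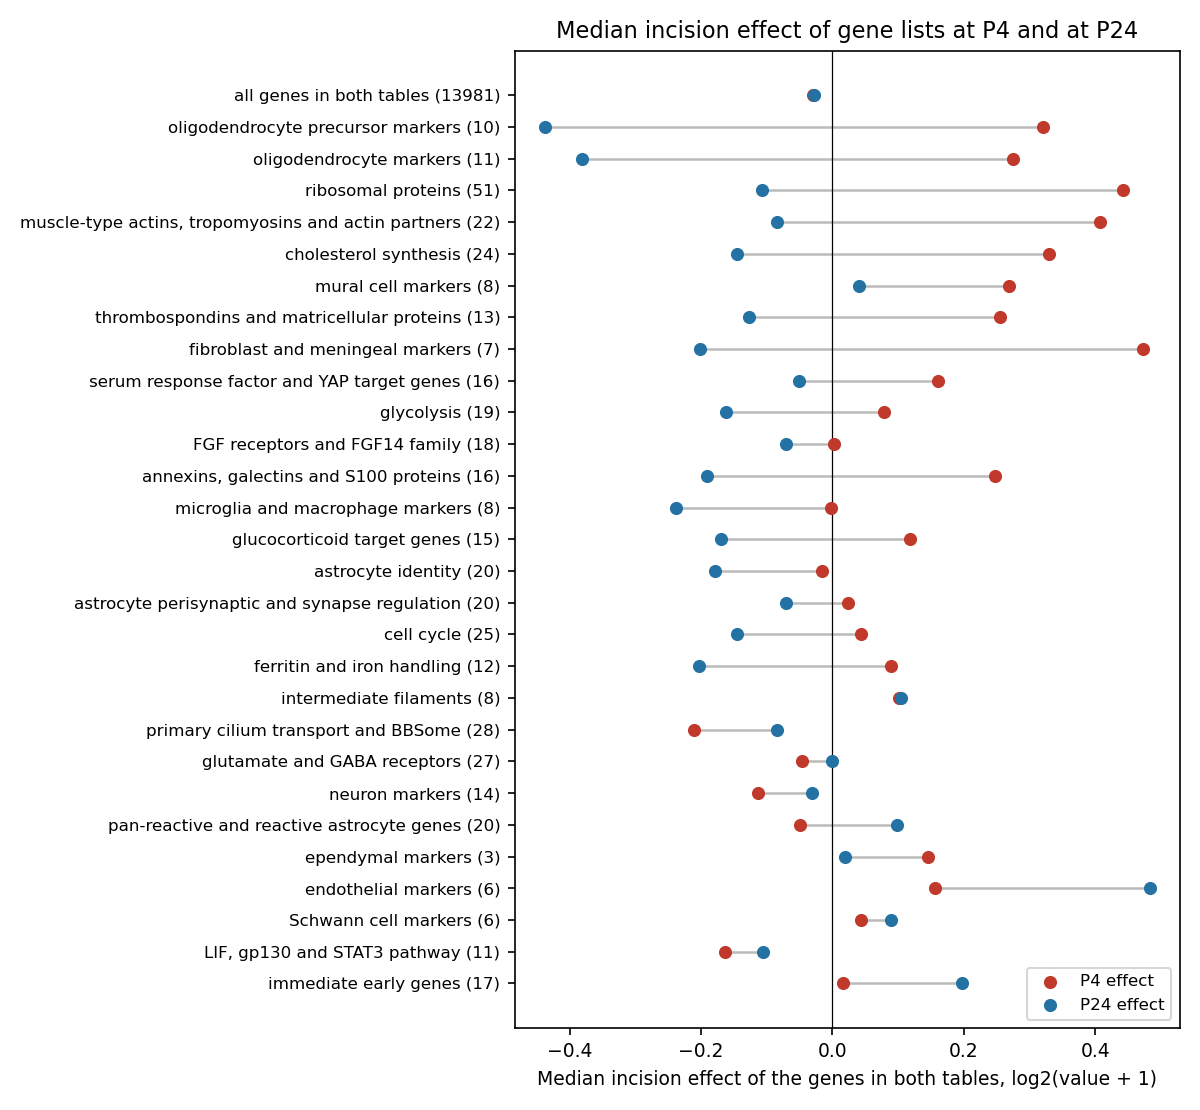
Median incision effect on log2(value + 1) of each gene list at P4 (red) and at P24 (blue), with the number of genes in both tables in brackets, ordered by the median difference. Ribosomal proteins (0.44 and -0.11), oligodendrocyte precursor markers (0.32 and -0.44) and oligodendrocyte markers (0.28 and -0.38) span the zero line, while all genes sit at -0.03 and -0.03.

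Cytosolic ribosomal protein genes, which encode the parts of the translation machinery, were higher at P4 relative to P24 as a group of small differences. All 51 listed were in both tables, with medians of 0.44 at P4, -0.11 at P24 and 0.50 for the difference. The difference was positive for 50 of 51, and 27 were higher and 0 lower, while 0 were called in limma. The difference of the authors' deposited fold changes called 2, Rps19 and Rpl8, and limma called Rps19 alone with array weights, a pseudocount of 10 or a mean of at least 50. Rps19 had 886, 786, 671 and 657 normalized counts in incised P4 libraries, against 455, 385, 342 and 448 in naive P4 libraries. It had 473, 428, 467 and 406 in incised P24 libraries, against 469.9, 620.4, 488 and 579 in naive P24 libraries, which overlapped only between naive F2 and incised F1. Its effects of 0.88 and -0.27 differed by 1.15 (adjusted p = 0.0555), and the authors' deposited table calls it at P4 (adjusted p = 0.00697). Rpl8 had effects of 0.71 and -0.23, Rpl32 of 0.64 and -0.24 and Rps3 of 0.53 and -0.14. The mean log2 level of the list was 8.44 to 9.10 in incised P4 libraries, with F1 the highest, and 8.16 to 8.39 in naive P4 libraries. It was 8.64 to 8.79 in incised P24 and 8.67 to 8.90 in naive P24 libraries. Without incised P4 F1 the count was 17 and the P4 median 0.28. Processed copies of these genes exist, and how shared reads were counted was not given.

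Markers of the oligodendrocyte lineage, cells that the sort was not aimed at, also had positive medians at P4 and negative ones at P24. Whether their differences and those of the ribosomal protein genes were alike was not tested. All 10 precursor markers were in both tables, with medians of 0.32, -0.44 and 0.69, and 3 were higher and 0 lower. Olig1, a lineage transcription factor, had 786, 834, 677 and 1113 normalized counts in incised P4 libraries, against 637, 503, 615 and 526 in naive P4 libraries. It had 1324, 1650.2, 1431 and 1203 in incised P24 libraries, against 2596, 1616, 2219 and 2073 in naive P24 libraries. The P4 groups were apart, as in 5.76% of all genes, and at P24 only incised F2 passed naive F3. Its effects of 0.56 and -0.59 differed by 1.15 (adjusted p = 0.0780). Pdgfra, the receptor that marks these precursors, had effects of 0.47 and -0.47 and Sox10 of 0.84 and -0.16. The summed level of the list was 1551 to 1961 in incised P4 and 1121 to 1371 in naive P4 libraries, and 4063 to 5270 in incised P24 and 5411 to 7295 in naive P24 libraries, without overlap at either age. By the P24 effect alone 6 of the 10 were lower and 0 higher at an unadjusted p under 0.05, against 5.09% and 4.43% of all genes. The P4 median of the list was 0.14 without incised P4 F1.

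Of 15 oligodendrocyte markers 11 were in both tables, with medians of 0.28 at P4, -0.38 at P24 and 0.55 for the difference, and 2 were higher and 0 lower. They were Trf, which encodes the iron carrier transferrin (0.68 and -0.35), and Cldn11, a myelin tight junction gene (1.00 and -0.46). At P24 alone all 11 were lower at an unadjusted p under 0.05, against 5.09% of all genes lower and 4.43% higher. The summed level of the 15 markers at P24 was 82596 to 98926 in incised and 109054 to 124726 in naive libraries. At P4 the summed level of 11 markers was 1392 to 3614 in incised and 1384 to 2528 in naive libraries, which overlap. The P4 median was -0.15 without incised P4 F1 and -0.02 without naive P4 F1, so the P4 side rested on those libraries. It was 0.70 without incised P4 M1, where 8 members were higher. No member of either list was at 0 in any library. The part of these markers in the differences of other genes was not tested.

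**Figure D5:**
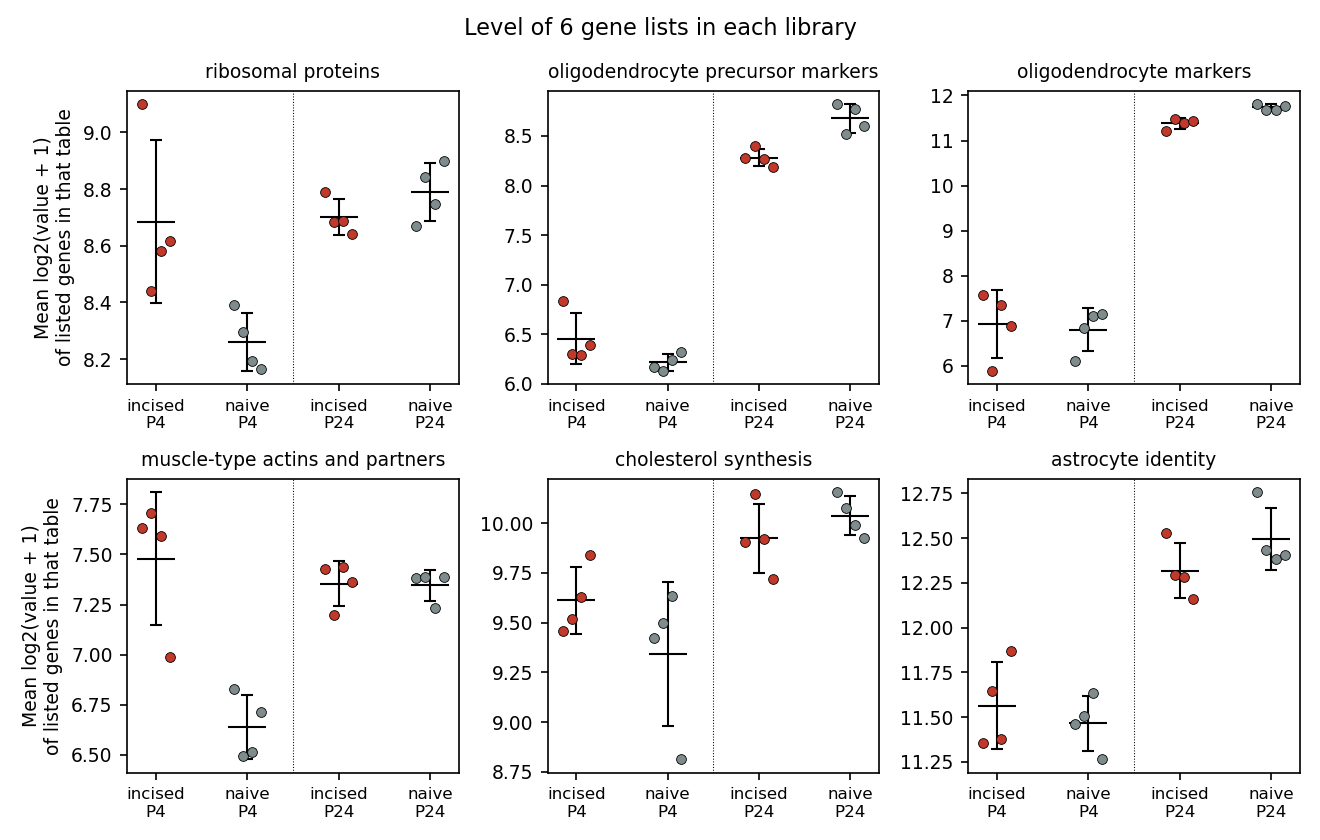
Mean log2(value + 1) of the genes of 6 lists in each library, with bars at the mean ± SD of 4 libraries, and axes that do not start at 0. The muscle-type list holds 25 genes at P4 and 22 at P24, and the oligodendrocyte list 11 at P4 and 15 at P24. Ribosomal protein genes stand higher in incised (8.44 to 9.10) than in naive P4 libraries (8.16 to 8.39), and both oligodendrocyte lists stand lower in incised than in naive P24 libraries.

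Muscle-type actins, tropomyosins and their partners held 22 genes in both tables of 25 listed, with medians of 0.41, -0.08 and 0.47, and 6 were higher and 2 lower. The median difference was 0.36 without incised P4 M2 and 0.73 without incised P4 M3. Beside Tpm2, Myl6, a light chain of non-muscle myosin, had effects of 0.76 and -0.18 (adjusted p of the difference 0.152), and Tagln, the smooth muscle gene transgelin, of 1.85 and 0.20 (adjusted p 0.286). On the lower side were Zyx, a focal adhesion gene (-1.13 and 0.05), and Tpm3, another tropomyosin (-0.52 and 0.12). Target genes of serum response factor and YAP, regulators that respond to actin and tension, held 4 higher and 0 lower of 16, with medians of 0.16 and -0.05. They were Actg1, Crim1, Fhl2 and Ccn2. Mural cell markers, which share contractile genes with this list, had medians of 0.27 and 0.04 over 8 genes, and the P4 median was 0.02 without incised P4 M2. At P4 the summed level of 9 mural markers, Acta2 among them, was 1076 to 1498 in incised and 641 to 1022 in naive libraries. At P24 that of 8, without Acta2, was 906 to 1283 in incised and 946 to 1463 in naive libraries. The sums at P4 and P24 thus cover different genes. The part of mural markers in the actin differences was not tested. Fibroblast and meningeal markers had a median of 0.47 at P4 and -0.20 at P24 over 7 genes, with summed levels of 1518 to 2653 in incised P4 and 1543 to 2197 in naive P4 libraries, which overlap.

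Annexins, galectins and S100 proteins, which bind membranes, sugars and calcium, held 5 higher and 0 lower of 16, with medians of 0.25, -0.19 and 0.23. Beside Anxa2 and Lgals1 these included S100a11 (1.36 and -0.49) and S100a6 (1.16 and -0.04), and S100a16, chosen after its values were seen. The P4 median was 0.05 without incised P4 F1. Thrombospondins and other matricellular proteins held 3 higher and 1 lower of 13, with medians of 0.25 and -0.13 and a median difference of 0.34, which was 0.20 without incised P4 M1. Ccn2, the connective tissue growth factor gene, had effects of 1.68 and -0.28 (adjusted p of the difference 0.469), and Spp1, the secreted protein osteopontin, of -1.91 and 0.01 (adjusted p 0.441). Ferritin and iron handling genes held 3 higher of 12, Fth1, Ftl1 and Trf, while the median difference of the list was only 0.05 and its sign changed without incised P4 M1 (-0.15). Intermediate filament genes held 2 higher and 1 lower of 8, among them Vim, the vimentin gene, with effects of 1.04 and -0.02 (adjusted p of the difference 0.241), and Gfap with -0.42 and 0.05 (adjusted p 0.493).

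FGF receptors and the FGF14 family held 3 higher and 2 lower of 18. Fgfr3, an FGF receptor of astrocytes, had effects of 0.52 and -0.25 and the decoy receptor gene Fgfrl1 of 0.42 and -0.62 (adjusted p of the difference 0.197 for both). The remaining higher member was Etv4, an FGF-responsive transcription factor chosen after its values were seen. Cholesterol synthesis genes held 5 higher and 0 lower of 24, with medians of 0.33, -0.15 and 0.45. Srebf2, the transcription factor that switches on this pathway, had effects of 0.55 and -0.19, and the higher members also included Fdps, Idi1 and Mvd. Their count was 2 without naive P4 M2, incised P4 M3, naive P24 F2, naive P24 F3 or incised P24 M2, and 8 without incised P24 F2, and the median difference was 0.22 without naive P4 M2. Primary cilium transport and BBSome genes had negative medians at both ages, -0.21 and -0.08. Of 28, 0 were higher and 4 lower, Dync2h1, Dync2li1, Ift122 and Kif3b. Dync2li1, the light intermediate chain of the same motor, had effects of -1.88 and 0.09, and Ift122 of -1.29 and -0.20. The count of 4 was 2 without naive P4 F1, naive P4 F2, naive P24 M1 or naive P24 M2.

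Astrocyte identity genes held 6 higher and 1 lower of 20, with medians of -0.02 at P4, -0.18 at P24 and 0.19 for the difference. Beside Slc6a11 and Fgfr3 these included the bicarbonate transporter gene Slc4a4 (0.27 and -0.36) and the endfoot membrane gene Mlc1 (0.45 and -0.17). Kcnj10, the potassium channel Kir4.1, had effects of 0.37 and -0.29 (unadjusted p of the difference 0.0220, adjusted p = 0.419). For Aqp4 the effects were 0.26 and -0.14, for Slc1a2 0.07 and -0.31, for Slc1a3 -0.08 and -0.01, for Aldh1l1 -0.02 and -0.16, for Sox9 -0.16 and 0.17, and for Gja1 -0.13 and -0.05, with no difference called. Without naive P24 F2 the count of 6 was 3. At P24 alone 6 of the 20 astrocyte identity genes were lower and 0 higher at an unadjusted p under 0.05. Of all genes 5.09% were lower and 4.43% higher there. At P4 alone 4 of the 20 were higher and 1 lower, against 9.07% of all genes in either direction. Genes of reactive astrocytes held 1 higher and 1 lower of 20, with medians of -0.05 and 0.10, and these were Vim and Gfap. Cell cycle genes held 1 higher and 2 lower of 25, with the D cyclins on opposite sides, at effects of 1.70 and -0.31 for Ccnd1 (adjusted p of the difference 0.189) and of -0.81 and 0.33 for Ccnd2 (0.117). Glucocorticoid target genes held 1 higher and 0 lower of 15. It was Sgk1, a kinase gene induced by these hormones, with effects of 0.94 and -0.70 (adjusted p 0.259). Glycolysis genes held 3 higher and 0 lower of 19, Gapdh, Pkm and Pgam1, with medians of 0.08 and -0.16.

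The remaining lists held 2 or fewer members past the limit. Of 11 genes of the LIF, gp130 and STAT3 pathway, the receptor gene Cntfr was higher (0.81 and -0.23) and Lifr lower (-0.89 and -0.12). Of 17 immediate early genes 1 was higher, Ier3 (1.12 and -0.47), and of 20 genes of synapse regulation 1, Thbs1. Of 27 glutamate and GABA receptor genes 0 were higher and 0 lower. Among markers of other cells, Nefm was the higher one of 14 neuron markers (0.64 and -0.20, list medians -0.11 and -0.03) and C1qa of 8 microglia and macrophage markers (0.26 and -1.05, list medians 0.00 and -0.24). Sox10 was the higher one of 6 Schwann cell markers, and 0 of 6 endothelial and 0 of 3 ependymal markers passed. The endothelial medians were 0.16 at P4 and 0.48 at P24. At P24 alone 2 of the 6 were higher at an unadjusted p under 0.05, against 4.43% of all genes. The summed level of 7 endothelial markers was 318 to 492 in incised P24 and 242 to 327 in naive P24 libraries, which overlap. The summed level of 14 neuron markers was 4794 to 9357 in incised P4 and 6009 to 8034 in naive P4 libraries, with overlap. That of 12 microglia and macrophage markers was 929 to 1389 in incised P24 and 1115 to 1559.5 in naive P24 libraries, with overlap. Only 8 of these 12 were in both tables.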

How the data were processed

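Nuclear RNA of sorted astrocyte nuclei was measured by RNA-seq. STAR, Salmon, DESeq2 and the build mm10 are named in the submitters' processing notes, without versions. The signal in each deposited table is a normalized count from DESeq2, scaled separately for each age, per the file headers and the workbook's text. The values are not whole, so reads and depth could not be recovered. That text gives a first filter by the authors of 10 counts in 4 samples, a model of sex and condition, and later filters on normalized expression (over 20) and coefficient of variation (under 0.65) in at least 1 group. A gene absent from a table may have failed either filter, so a spread or low gene is missing. The authors' deposited log2 fold changes, their standard errors (unit score) and the authors' p-values were used for 1 alternative and for the genes that table calls.

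Here limma 3.58.1 (R 4.3.3, statmod 1.5.0, trend and robust settings) was fitted to log2(value + 1) of genes with a mean of at least 10, which left out 0 genes at either age. The difference used 1 fit over 16 libraries with group as the term, and each effect used its own table. The common fit gives each gene a shared spread over both ages. Where P24 libraries vary less, this lowers the error set on the P4 libraries. Fold changes on this scale understate the change of low genes. Tests were 2-sided with Benjamini-Hochberg adjustment over all genes tested, and p-values measure the spread between these mice. The common fit sets 2 tables with separate scaling side by side, and only contrasts within a table enter the difference. Sex was left out of the main model, because the title of naive P24 M1 and the deposited sample sheet give different sexes. 2 libraries whose title and characteristics give different groups, MB12 and MB16, entered nothing, and 6 columns of the tables used were not used. Positions come from GENCODE M21 (mm10).

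The members and gene lists were chosen with earlier results of these data known. Named are the 8 genes with the lowest p of the difference in each direction, all genes called at an age and the 4 with the lowest p in each direction, the 5 kept and 5 reversed genes with the lowest larger p in each direction, 8 astrocyte genes, and at most 4 members of a list. Predicted, Rik and sex-linked genes were not named, and some results counted in the totals are not reported here by gene. Alternatives covered the pseudocount, the filter, sex, limma settings, array weights, quantile normalization, a replicate block, each library left out, the authors' fold changes and, added after seeing the data, a trend with gene span.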

Additional observations from a re-analysis of the deposited data

Results flagged for a closer look

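The difference between the P4 and P24 effects passed its test in limma for 6 genes, with log2 differences of 1.56 for Fth1, 1.27 for Slc6a11, 2.66 for Evi2a, 2.71 for Tpm2, 2.63 for Thbs1 and -2.06 for Fgf14.

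Of 208 groups of 4 libraries looked at over the named genes, 12 held a library whose gap to the nearest other exceeded the 95% limit for a group of 4, and chance flags about 1 group in 20. In incised P4 libraries these were Efemp1 in M3 at 165 normalized counts (the others 217 to 226), Arglu1 in M2 at 5284 (4922 to 4978), Sox9 in M3 at 2498 (2187 to 2224) and Kcnj10 in M2 at 341 (518 to 535). In naive P4 libraries they were Rpl30 in M2 at 93.9 (36.0 to 43.5), Arglu1 in M2 at 5837 (7148 to 7308) and Nf1 in F1 at 257 (306 to 314). In incised P24 libraries they were Zscan26 in M2 at 1478 (1594 to 1604), Malrd1 in F2 at 17.4 (23.2 to 24.3), Yipf3 in F1 at 521 (371 to 389) and Slc1a2 in F1 at 7108 (4681 to 4954). In naive P24 libraries it was Klhdc7b in F3 at 39.4 (69.8 to 73.7). None of the 6 genes above was among them.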

How the results depend on the processing

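The count of genes whose effects differed, 6 as reported, was 10 with a pseudocount of 10, 20 with array weights, 1 without the trend and robust settings, 0 with a replicate block, 47 from the authors' deposited fold changes and 0 to 36 with 1 library left out. The 12 genes called at P4 became 4 with sex from the titles or from the sheet, 0 without trend and robust settings, 4 with the block, and 0 to 17 with 1 library left out. Of 51 ribosomal protein genes, the 27 higher became 16 with the block. The 0 genes at P24 became 3 with array weights, 16 with the block and 0 to 2 with 1 library left out. The share of day 1 genes detected at P24, 9.46%, was 15.4% for a P4 p under 0.001 and 5.68 to 13.2% with 1 library left out. The share of day 21 genes detected at P4, 9.66%, was 5.45% with sex from the sheet and 5.92 to 13.1% with 1 library left out. The cause of these changes was not tested.

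The 6 called genes kept their direction under every alternative run. Without any 1 library their log2 differences were 1.46 to 1.75 for Fth1, 1.17 to 1.38 for Slc6a11, 2.35 to 2.95 for Evi2a, 2.47 to 2.90 for Tpm2, 2.40 to 2.85 for Thbs1 and -2.16 to -1.87 for Fgf14. They were called in 13, 9, 8, 8, 8 and 13 of these 16 fits, with adjusted p up to 0.0807. Under the other alternatives the highest adjusted p in limma was 0.118 for Fth1, 0.292 for Slc6a11 and 0.112 for Evi2a. It was 0.308 for Tpm2, 0.122 for Thbs1 and 0.205 for Fgf14. The sign changed for small differences only. Malrd1 (-0.15 as reported) was 0.047 with array weights, 0.59 with quantile normalization, 0.034 with the block, 0.013 from the authors' fold changes and -0.49 to 0.15 with 1 library left out. Gja1 (-0.08) was 0.0057 with quantile normalization and -0.28 to 0.13 with 1 library left out. Sarm1 (0.24) was -0.0090 and Ccdc141 (-0.25) was 0.015 with the block. Slc1a3 (-0.07) was -0.26 to 0.24 with 1 library left out.

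The correlation of deviations between same-numbered libraries was -0.123 to 0.026, so the numbers were not taken to pair the samples. Depth is unknown, and the SE of a difference was 0.40 at the median.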
